A study of Mus musculus with 4 samples.

Results

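The clustered histone genes of stromal cells from the small intestine (SI) and large intestine (LI) of mouse embryos at E12.5 were examined by droplet single-cell RNA sequencing. They were taken as every gene whose symbol starts with Hist, a digit and h, which gave 69 of 28692 listed genes under 68 symbols, as *Hist2h2bb* stands on 2 gene identifiers. There were 2 SI libraries and 2 LI libraries, the LI including the cecum. The libraries of 1 region came from independent experiments that each pooled several embryos. Whether SI and LI libraries shared an experiment is not stated. All 4 libraries came from untreated EYFP embryos on a C57BL/6 background, and cells had been sorted as live, YFP+ and Itgb1+, and as CD45-, Ter119-, CD31- and EpCAM-. After filtering, 22094 cells were kept, 10709 of LI and 11385 of SI, with a median of 4220.5 to 8829 unique molecular identifiers (UMIs, each counting 1 captured transcript) per cell. Kept cells held 28896597 to 56968160 UMIs a library, and pairs of libraries shared 8 to 15 cell barcodes. Sample titles give E12.5 while other sample labels name adult tissue, and the titles were followed.

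Histones are the proteins around which DNA is wound. H2A, H2B, H3 and H4 form the core of the nucleosome, and H1 binds the linker DNA between nucleosomes. Most of their genes lie in clusters, have no introns, and are transcribed when DNA is replicated, so that new DNA is packed at once. The bulk of these messages end in a short stem-loop that the protein *Slbp* binds, in place of a poly(A) tail. Some clustered genes can also yield polyadenylated messages, which are known from cells that have stopped dividing. The libraries used here capture poly(A) RNA, so the counts cover only the histone messages that such a method can catch.

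Of the 69 genes, 55 lay in the Hist1 cluster on chromosome 13, 11 in the Hist2 cluster on chromosome 3, 2 in the Hist3 cluster on chromosome 11, and 1 was *Hist4h4* on chromosome 6. By family there were 6 genes for H1, 19 for H2A, 19 for H2B, 12 for H3 and 13 for H4. Together they held 304013 of 180181188 UMIs in kept cells, or 0.169%. UMIs were found for 66 genes, 16 of all 69 had fewer than 100, and *Hist1h2br*, *Hist1h2bq* and *Hist1h4m* were listed at 0 in every library. As a UMI counts a transcript once whatever its length, shares of UMIs were compared between genes without division by length.

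A few genes held most of these UMIs. *Hist1h1b*, a linker histone gene, had 100887 UMIs, 33.2% of the total over histone genes, followed by the H2A gene *Hist1h2ae* with 42057 and the linker histone gene *Hist1h1e* with 29763. The 10 genes with most UMIs held 78.7%. The H1 family held 50.5% of the UMIs with 6 genes, against 25.1% for H2A, 9.49% for H2B, 6.18% for H3 and 8.74% for H4. Many histone genes are near-identical copies, and Cell Ranger counts only reads that map to 1 gene, so the split of reads among the copies is uncertain.

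The ends of the annotated transcripts bear on which messages could be caught. A stem-loop was searched for on the transcribed strand as 16 bases that read GG, any 3 bases, TT, 1 base, T, 1 base, A, 3 bases and CC, with bases 1 to 6 pairing with bases 11 to 16. In GENCODE annotation of the mm10 build, 67 of the 69 identifiers were found and 44 of these had the stem-loop, against 0.293% of 21836 other protein-coding genes. In 22 genes the annotated transcript ran on for more than 100 bases past the stem-loop, and these had a median of 1034 UMIs (range 17 to 42057). In the other 22 with a stem-loop the median was 635 UMIs (range 0 to 9204). In 23 genes, among them *Hist1h1b*, *Hist1h1a* and *Hist1h2bc*, no stem-loop was found in the annotated transcript, which says only that these letters are not in that model.

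The stem-loops of genes that the cell cycle results below turn on are shown here, with the stem-loop in capitals, 5 bases to each side in lower case, and the coordinates of the capitals in mm10. The first 4 genes were far higher in replicating cells than in late or resting ones, and the last 4 kept or gained counts outside them.

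Hist1h2ae, chr13:23570668-23570683, minus strand: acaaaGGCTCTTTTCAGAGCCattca
Hist1h4d, chr13:23581950-23581965, plus strand: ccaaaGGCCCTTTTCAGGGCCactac
Hist1h3c, chr13:23745047-23745062, minus strand: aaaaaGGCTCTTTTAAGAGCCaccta
Hist2h2ac, chr3:96220418-96220433, minus strand: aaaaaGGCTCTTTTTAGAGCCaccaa
Hist1h1c, chr13:23739512-23739527, plus strand: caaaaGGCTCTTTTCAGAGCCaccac
Hist1h4i, chr13:22040966-22040981, minus strand: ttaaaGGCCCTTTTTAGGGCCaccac
Hist1h4j, chr13:21735437-21735452, plus strand: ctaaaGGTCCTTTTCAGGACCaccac
Hist3h2ba, chr11:58949349-58949364, plus strand: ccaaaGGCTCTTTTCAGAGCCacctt

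The 16 bases were the same letters in *Hist1h2ae*, *Hist1h1c* and *Hist3h2ba*, whose cell cycle patterns differed. The annotated transcripts ran 151 bases past the stem-loop in *Hist1h2ae*, 770 in *Hist1h4d*, 840 in *Hist1h1c*, 330 in *Hist1h4i*, 385 in *Hist1h4j* and 169 in *Hist3h2ba*, but only 74 in *Hist1h3c* and 57 in *Hist2h2ac*. The *Hist1h2bc* transcript, of 1156 bases, was the product of 2 exons across chr13:23684199-23692908 on the plus strand.

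To place each cell in the cell cycle, S and G2M scores were computed from Seurat's gene lists, which hold no clustered histone gene. A cell was called G1 where both scores were below 0, and otherwise S or G2M by the higher score. In a check of this grouping, 8 of 8 S phase genes such as *Pcna* were called higher in S than in G1 cells, and 8 of 8 late genes such as *Ccnb2* higher in G2M than in S cells. Some of these genes are in the lists that made the scores, so the check is not independent of them. Where 4 values follow each other below, they are those of LI replicate 1, LI replicate 2, SI replicate 1 and SI replicate 2. The share of cells in S was 24.5%, 18.9%, 29.0% and 20.2%. The regions overlapped, and an exact permutation test over libraries gave p = 0.667 (2-sided), where 0.33 is the smallest value that 2 against 2 libraries allow. The share in G2M was 23.8%, 21.1%, 33.3% and 25.1%, higher in both SI libraries than in both LI libraries, with that smallest p. Cells under 3000 UMIs numbered 987, 200, 80 and 112. Without them, a choice made after the data were seen, the share in G2M was 26.8%, 21.2%, 33.2% and 25.0%, and with the rest also thinned to 3000 UMIs it was 26.8%, 21.0%, 33.0% and 25.2%. The regions overlapped in both (exact permutation p = 0.667).

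Summed over all 69 genes, the level in S cells was 2566 and 2690 counts per 1000000 UMIs of the same cells (CPM) in LI and 2233 and 2029 CPM in SI. In G2M cells it was 3008, 3313, 2520 and 2742 CPM, and in G1 cells 424, 406, 386 and 328 CPM. Every G1 value lay far below every S and G2M value, and G2M was above S in each library.

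Gene by gene, 54 histone genes passed the filter on low counts, and edgeR's quasi-likelihood test with library as a block called 50 higher and 3 lower in S than in G1 cells at an adjusted p under 0.05, where 23.8% of all 13887 genes tested were called higher and 25.1% lower (48.9% together). The median log2 fold change of the 54 was 2.30, against -0.03 over all genes tested. Between G2M and G1 cells 50 were higher and 2 lower, with 28.8% of all genes called higher and 28.9% lower (57.7% together). Between G2M and S cells 33 were higher and 1 lower, with 22.0% of all genes called higher and 19.5% lower (41.5% together). The largest change above S, after that of *Hist1h2bc*, was in *Hist2h2ab*, an H2A gene with few UMIs. It had 1.28, 1.06, 0.55 and 1.02 CPM in S and 2.30, 2.18, 1.39 and 2.34 CPM in G2M cells, higher in each library (log2 fold change 1.13 ± 0.25 SE). *Hist2h3b*, *Hist2h2aa1*, *Hist2h2bb*, *Hist1h2bh*, *Hist1h3f* and *Hist1h2ag* were called higher as well, by 0.69 to 1.00. Only the H3 gene *Hist1h3a* was called lower in G2M than in S cells, with 18, 14.6, 14.6 and 12.7 CPM in S and 11.9, 11.2, 9.07 and 9.18 CPM in G2M (log2 fold change -0.50 ± 0.11 SE, adjusted p = 0.0022 by edgeR).

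In called states, 38 of 54 genes had their highest level in G2M cells in all 4 libraries, 2 in S cells and 1 in G1 cells, while 13 differed between libraries. Of the 38, 30 were also called higher in G2M than in S cells. A cell with both scores above 0 is called by the higher one, so both states hold such cells. To set these cells apart, the angle of the 2 scores was used, with the S score on the horizontal and the G2M score on the vertical axis, in 12 intervals of 30 degrees. Summed histone levels were 237 to 376 CPM at 240 to 270 degrees and 4306 to 5604 CPM at 30 to 60 degrees, where both scores are positive. From the summed histone level by angle, 3 windows were chosen after the data were seen: resting (210 to 300 degrees), replication (0 to 90 degrees) and late (120 to 210 degrees, where the S score is below 0 and the G2M score high against it, or, in 110 to 161 cells a library from 180 to 210 degrees, both are below 0). As this choice used the values compared, counts of calls and fold changes between windows are descriptions, printed without p-values. The tests of the cell cycle are those between called states.

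In the replication window, with 632 to 1111 cells a library, the 69 genes summed to 4763, 5292, 4056 and 4516 CPM. The resting window, with 2135 to 3588 cells, had 406, 389, 357 and 303 CPM. The late window, with 280 to 404 cells, had 1018, 907, 751 and 744 CPM. The 3 windows did not overlap in any library.

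Of 53 histone genes tested between these windows, 49 were called higher and 2 lower in replication than in resting cells, where 25.1% of all 13369 genes were called higher and 29.3% lower (54.4% together). Between late and replication cells 41 were called lower and 3 higher, where 17.8% of all genes were called lower and 19.5% higher. Between late and resting cells 33 were called higher and none lower, with 20.2% of all genes called higher and 17.1% lower (37.3% together, as between late and replication cells). The median log2 fold change of the 53 was 3.36 from resting to replication and -2.26 from replication to late cells, against -0.05 and 0.02 over all genes. In each of the 4 libraries, 44 of 54 genes had their highest level in the replication window, 3 in the late window and 1 in the resting window, while 6 differed between libraries.

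**Figure D1:**
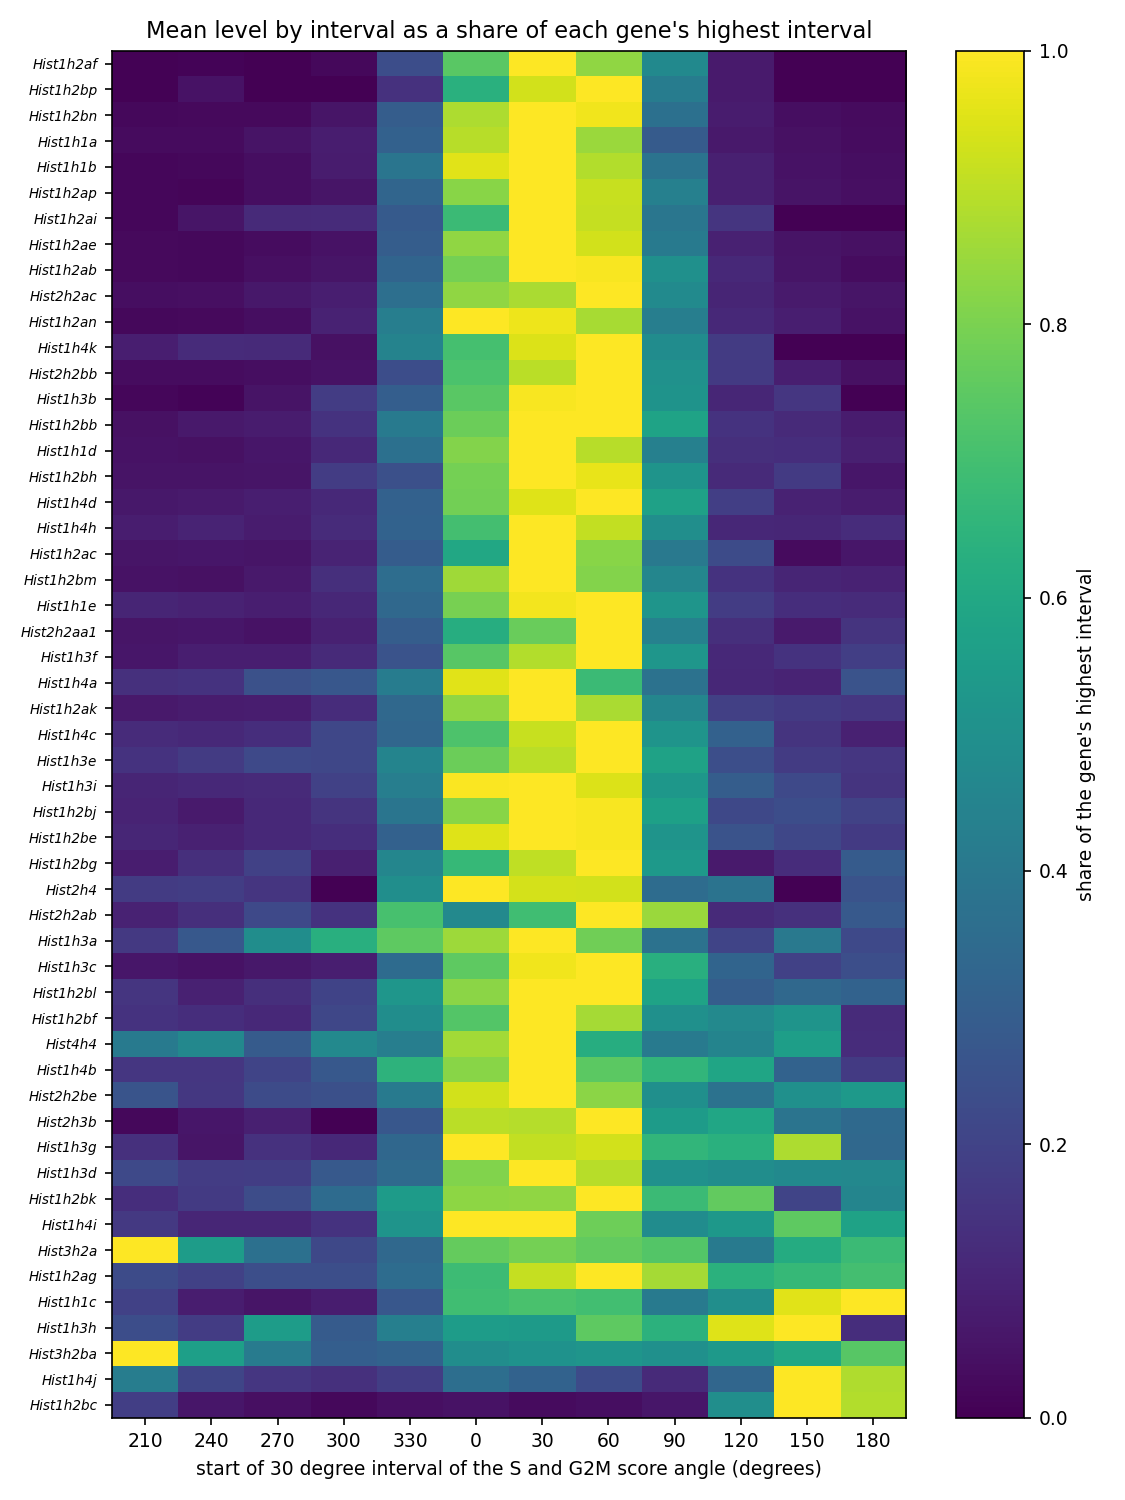
Mean level over the 4 libraries in each 30 degree interval of the S and G2M score angle (columns), as a share of the gene's highest interval (colour), for the 53 histone genes tested between windows (genes in order of their log2 fold change from replication to late cells). Most genes fill the 3 intervals from 0 to 90 degrees, while Hist1h2bc, Hist1h4j, Hist1h3h and Hist1h1c reach their highest mean at 150 or 180 degrees and Hist3h2ba and Hist3h2a at 210 degrees.

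The replication histones were led by a linker histone gene. *Hist1h1b* had 1598, 1679, 1808 and 1799 CPM in the replication window. It had 51.2, 33.4, 38.4 and 31.9 CPM in resting cells and 179, 104, 99.4 and 68.2 CPM in late cells. Every replication value stood above every other value, with a log2 fold change of 5.61 ± 0.13 SE over resting cells and of -4.01 ± 0.14 SE from replication to late cells. *Hist1h1a*, another linker histone gene, had 227, 228, 206 and 238 CPM in replication and 5.31 to 9.01 CPM in resting cells. *Hist1h1e* changed less, from 27.4 to 61.7 CPM in resting to 334 to 499 CPM in replication cells (log2 fold change 3.36 ± 0.07 SE).

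Among core histone genes, *Hist1h2ae* rose from 16.5, 22.9, 19.6 and 17.0 CPM in resting to 536, 970, 619 and 716 CPM in replication cells. *Hist2h2ac*, another H2A gene, rose from 4.62 to 9.78 CPM to 103 to 197 CPM, and *Hist1h4d*, an H4 gene, from 10.9 to 21.6 CPM to 116 to 313 CPM. For all 3 genes resting and replication values did not overlap. The H3 gene *Hist1h3c* rose from 4.93, 4.81, 10.4 and 6.31 CPM to 152, 115, 78.1 and 88.7 CPM, and stayed at 18.1 to 42.2 CPM in late cells (log2 fold change of late over resting 2.38 ± 0.30 SE). *Hist1h2ap*, an H2A gene, had 53.2 CPM in LI replicate 1 and 174 CPM in LI replicate 2 in the replication window, so the lowest and the highest of the 4 values were both from LI.

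*Hist1h3e*, another H3 gene, had 98.7, 82.2, 41.5 and 52.2 CPM in replication and 9.30 to 17.5 CPM in resting cells, without overlap. Most genes that the called states had put highest in G2M were highest in the replication window in all 4 libraries, other than *Hist1h1c*, *Hist1h2bk*, *Hist2h3b*, *Hist1h3d* and *Hist1h3h*. *Hist2h2aa1* had 8.98 to 16.8 CPM in replication cells but 0.702 to 3.51 CPM in late cells, and *Hist1h3f* 20.7, 19.9, 9.72 and 13.2 CPM but 1.17 to 4.41 CPM. Their late values all lay below their replication values.

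The share of cells with a UMI showed the same separation. After each cell of at least 3000 UMIs was thinned to that number and the others were left out, *Hist1h1b* was found in 93.8%, 92.3%, 90.9% and 92.9% of replication cells and in 7.41% to 11.7% of resting cells. In cluster 8, led by the neuronal genes *Stmn2* and *Tubb3* and with 88.6% of its cells in G1, the share was 5.36% to 9.52%, which was taken as background. Median depth before thinning was 5415 to 12376 UMIs in replication cells and 8228.5 to 18011.5 in cluster 8. Without thinning the share was 96.9% to 98.6% in replication cells. A replication cell held UMIs of a median of 7, 8, 6 and 6 histone genes after thinning, and a resting cell of 1 in each library.

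*Hist1h2bc*, an H2B gene, ran against this pattern. It had 10.6, 13.5, 7.17 and 7.30 CPM in the replication window, 17.5, 23.3, 49.0 and 28.4 CPM in resting cells, and 119, 206, 200 and 202 CPM in late cells. In every library the order was late, then resting, then replication. The log2 fold change was 4.35 ± 0.22 SE from replication to late cells and -1.57 ± 0.23 SE from resting to replication cells. Between called states, *Hist1h2bc* was higher in G2M than in S cells by 1.71 ± 0.23 SE and lower in S than in G1 cells (-2.09 ± 0.22 SE), while G2M against G1 cells gave -0.38 ± 0.17 SE, which was not called. As the gene was chosen for its late peak, these are descriptions. The change from replication to late cells stayed between 4.11 and 4.5 when each library was left out in turn.

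**Figure D2:**
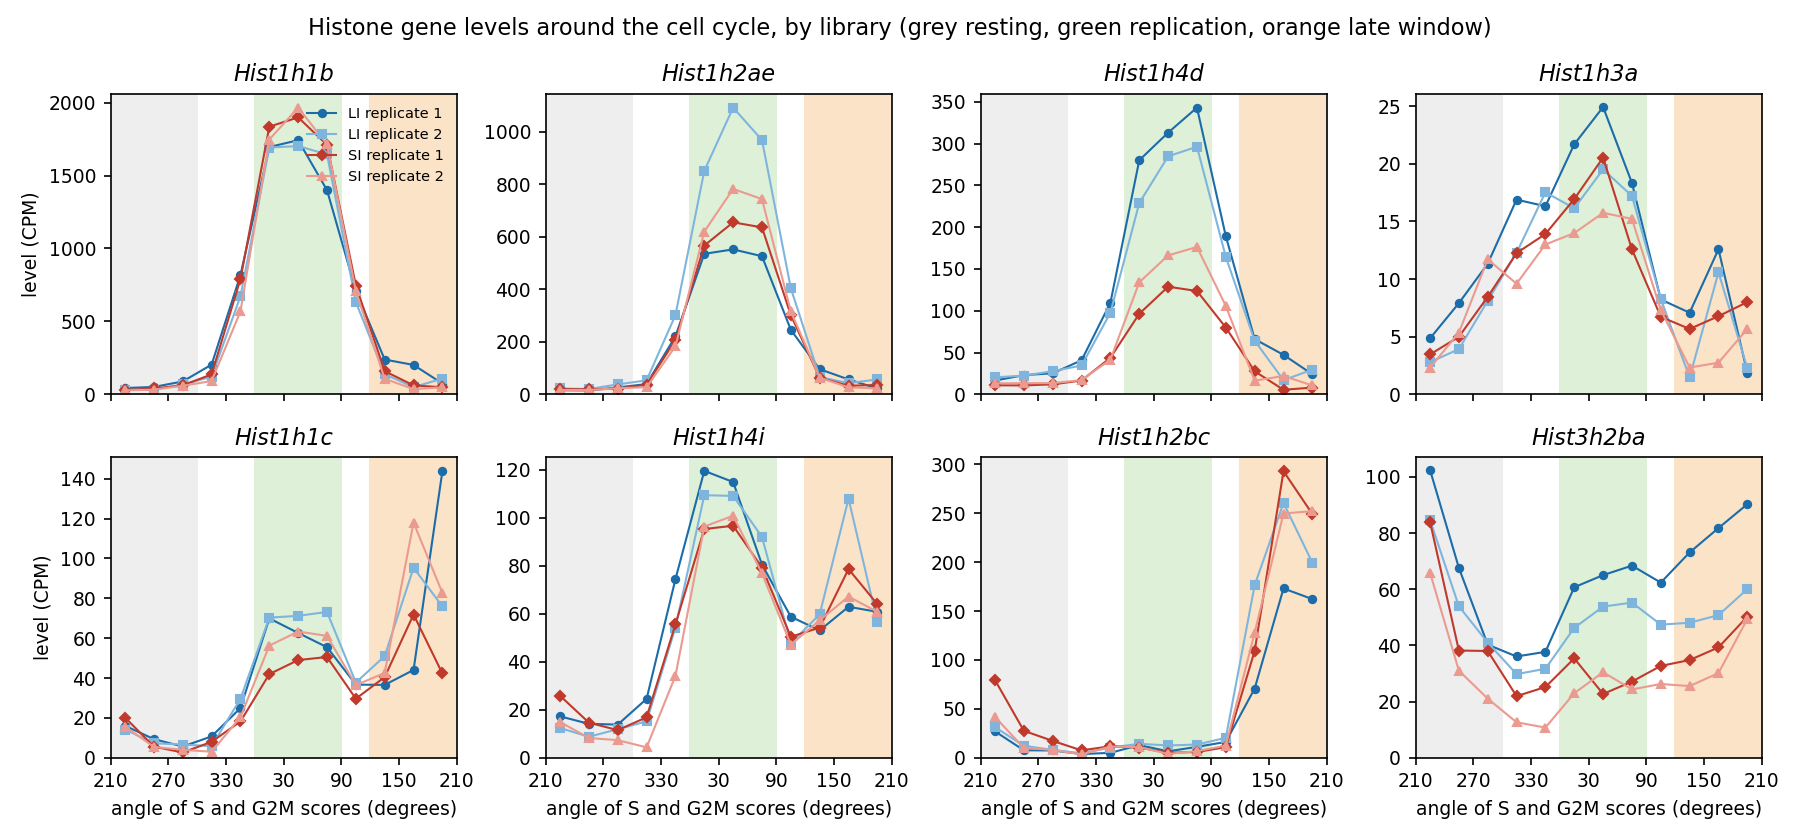
Level in CPM (vertical axis) against the angle of the S and G2M scores in degrees (horizontal axis, 30 degree intervals, starting at 210) for 8 histone genes, 1 line for each of the 2 LI and 2 SI libraries; shading marks the resting (grey), replication (green) and late (orange) windows. Hist1h1b, Hist1h2ae, Hist1h4d and Hist1h3a peak in the replication window, Hist1h1c and Hist1h4i have a peak there and remain above their resting level in the late window, Hist1h2bc is highest in the late window in each library, and Hist3h2ba is highest at 210 to 240 degrees in each.

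The late window held 35.6% of all *Hist1h2bc* UMIs but 5.47% of the UMIs of all genes and 1.02% of those of *Hist1h1b*. After thinning, 27.3%, 35.4%, 39.2% and 39.8% of late cells had a *Hist1h2bc* UMI, against 1.81% to 4.35% of replication cells and 1.79% to 13.0% of cluster 8 cells. Without thinning it was 32.2% to 64.7% of late and 4.77% to 15% of replication cells. Median depth before thinning was 4147 to 7750.5 UMIs in late cells, in each library below that of replication cells.

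*Hist1h1c*, a linker histone gene, was high in both windows. It had 62.5, 71.6, 47.3 and 60.2 CPM in replication cells, 72.0, 72.0, 49.2 and 74.7 CPM in late cells, and 11.3 to 12.3 CPM in resting cells. Replication and late values overlapped, but late was the higher in each library, with a log2 fold change of 0.17 ± 0.09 SE that was not called. Late exceeded resting cells by 2.65 ± 0.11 SE. The H4 gene *Hist1h4i* kept 57.4 to 69.6 CPM in late cells against 89.7 to 104 CPM in replication and 11.2 to 19.1 CPM in resting cells, and was called lower from replication to late cells (log2 fold change -0.60 ± 0.12 SE).

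*Hist1h4j*, another H4 gene, was called higher in late than in replication cells (log2 fold change 1.18 ± 0.34 SE), from 1.32 to 2.33 CPM to 2.94 to 4.68 CPM. It had 268 UMIs in all, and the call was lost without LI replicate 1 and without SI replicate 1. *Hist3h2ba*, an H2B gene of the Hist3 cluster, was the third gene called higher, with a change of 0.34 ± 0.13 SE, and its call was lost without LI replicate 1, SI replicate 1 or SI replicate 2.

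*Hist3h2ba* had the highest mean level of all clustered histone genes in resting cells. It had 82.0, 71.1, 58.6 and 50.5 CPM in resting and 64.8, 51.9, 28.5 and 25.7 CPM in replication cells, and was lower in replication cells in every library (log2 fold change -0.59 ± 0.09 SE). Its neighbour *Hist3h2a*, an H2A gene, had 26.5, 33.0, 27.9 and 24.6 CPM in resting and 34.8, 42.3, 14.5 and 21.5 CPM in replication cells, higher in both LI libraries and lower in both SI libraries. Its estimate over the 4 libraries was 0.03 ± 0.14 SE. The annotated *Hist3h2a* overlaps *Trim17* on the same strand, so reads of the overlap cannot be assigned with certainty.

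**Figure D3:**
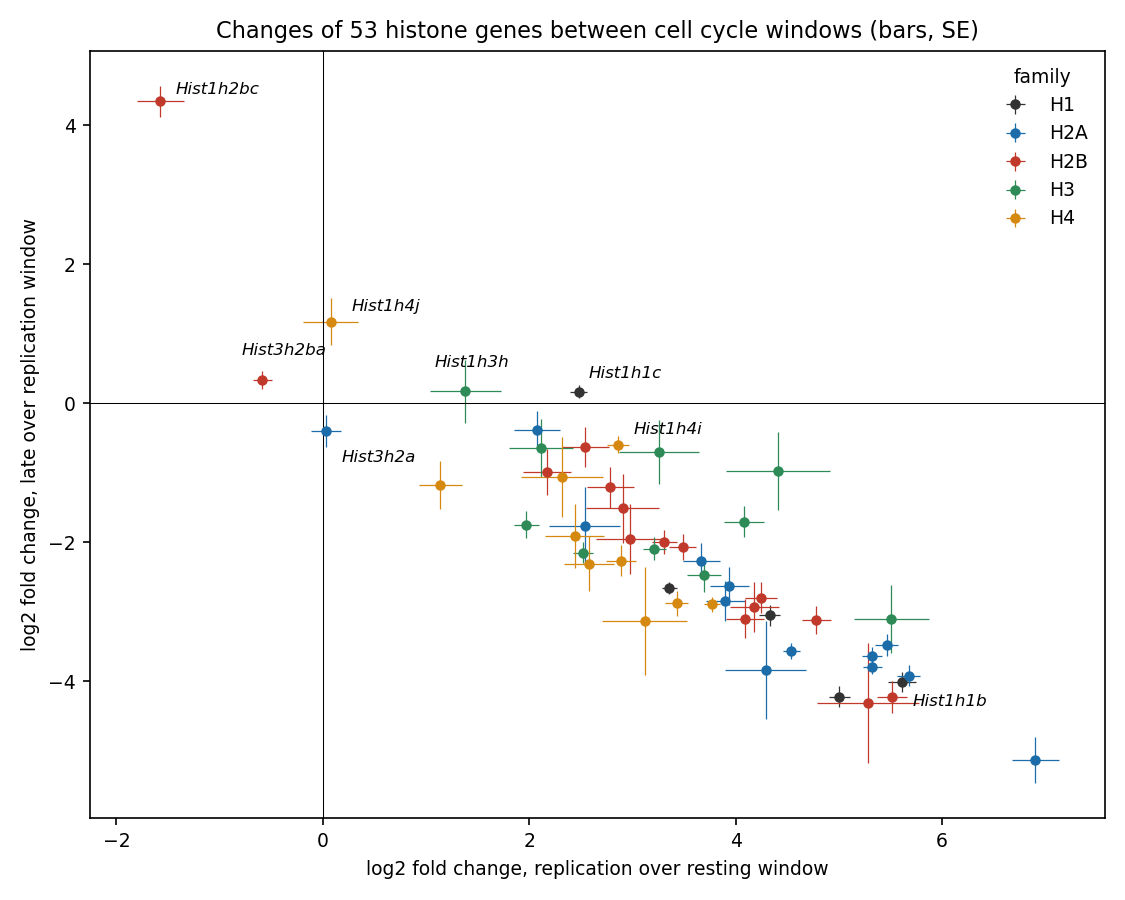
Log2 fold change from resting to replication cells (horizontal axis) against that from replication to late cells (vertical axis) for 53 histone genes, coloured by family, with bars of 1 SE; both comparisons share the replication cells. Most genes lie at the lower right, Hist1h2bc at the upper left, and Hist1h4j, Hist3h2ba, Hist3h2a, Hist1h1c and Hist1h4i between them.

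The genes were further compared with cells that had at least 1 UMI of both *Ccnb2*, a cyclin of mitosis, and *Cdkn3*, a phosphatase gene of late cell cycle. There were 179, 242, 389 and 407 such cells, with a median of 6724 to 15539.5 UMIs. *Hist1h2bc* had 27.7, 40.0, 40.0 and 58.4 CPM in them, above the 7.68 to 10.7 CPM of S cells (log2 fold change 2.35, with no p as the gene was chosen for its level in such cells), but below its level in the late window, and in SI replicate 1 also below the 66.7 CPM of G1 cells. *Hist1h1c* had 23.7, 33.5, 22.7 and 37.5 CPM in them against 35.1, 38.3, 24.7 and 27.2 CPM in S cells, lower in 3 of the 4 libraries. *Hist1h1b* was at 361 to 525 CPM in them, against 823 to 1018 CPM in S cells. With these cells in place of G2M cells, 2 histone genes of 53 were called higher and 17 lower than in S cells, where 31.7% of all 13592 genes were called, while the late window gave 3 higher and 41 lower than the replication window.

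Cells were also clustered, with both scores regressed out, on variable genes that included no clustered histone, cell cycle or Hox gene. Of 11 clusters, 0, 3 and 7 were fibroblast (FB)-like, 1 smooth muscle cell (SMC)-like, 4 mesothelial-like and 6 neural-like by their markers. The FB-like clusters had no FB marker among their leading genes and were named because at least 3 of 8 listed FB markers were detected (all 8 were) and no marker of another list was among the 10. Cluster 9 met this as well, but stayed unnamed by a choice made after the clusters were seen, because *Afp* and *Rbp4*, genes of liver and yolk sac, were among its 10. It held 3.37% of the cells of LI replicate 2 and 0.016% to 0.0584% of those of each other library. Cluster 5 stayed unnamed, with 1241 cells of which 2.02% were called S, 44.6% G2M and 53.4% G1. Its leading genes were *Hist1h2bc*, *Epcam*, *Ccnb2*, *Cenpa* and *Cdkn3*, with *Hist1h1c* also among the 10. *Epcam*, the epithelial gene whose protein was sorted against, was the only one of 5 epithelial markers among its 10 leading genes.

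In cluster 5 the level of *Hist1h2bc* was 140, 261, 219 and 246 CPM, against 9.12 to 96.6 CPM in clusters 0 to 4 and 6 to 8 (clusters 9 and 10, with 162 and 18 cells, are left out). The cluster held 35.5% of all *Hist1h2bc* UMIs and 4.61% of the UMIs of all genes. *Hist1h1c* had 46.5, 82.3, 45.7 and 79.9 CPM there against 9.48 to 51.9 CPM in the same clusters, overlapping with SI replicate 1 of cluster 8. *Hist1h1b* had 42.9 to 67.0 CPM in cluster 5, where the same clusters had 56.1 to 1190 CPM. As the cells were clustered on other genes of the same transcriptomes, these levels are given without a test.

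**Figure D4:**
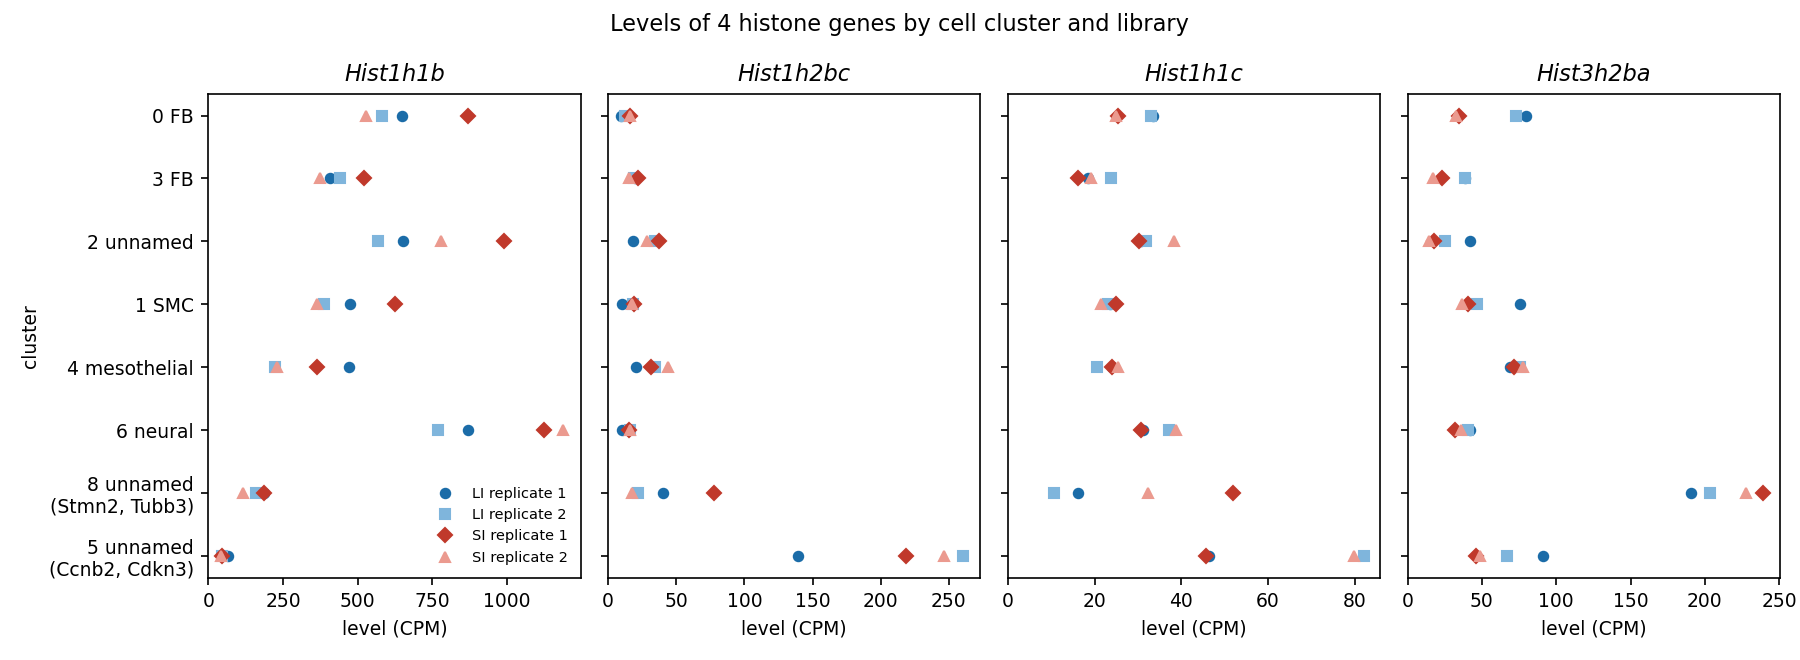
Level in CPM (horizontal axis) of Hist1h1b, Hist1h2bc, Hist1h1c and Hist3h2ba in 8 cell clusters (vertical axis), 1 point for each of the 4 libraries; the small clusters 7, 9 and 10 are not drawn. Hist1h2bc stands out in cluster 5 (140 to 261 CPM) and Hist3h2ba in cluster 8 (191 to 239 CPM), and Hist1h1b is low in both.

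Cluster 8, of 289 cells, was led by *Cartpt*, *Stmn2* and *Tubb3*, genes of neurons, and stayed unnamed as only 2 of its 10 leading genes were on the neural list. *Hist3h2ba* had 191, 203, 239 and 227 CPM in it and *Hist3h2a* 99.4, 98.9, 189 and 127 CPM. In clusters 0 to 7 the ranges were 14.6 to 90.9 CPM and 8.64 to 43.7 CPM, with no overlap. After thinning, 41.1% to 55.8% of cluster 8 cells had a *Hist3h2ba* UMI, against 12.6% to 20.0% of resting cells.

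Cell groups were compared within 1 called state, and the mix of score angles within that state was not matched between groups. In S cells, 34 histone genes could be tested against FB-like cells. For SMC-like cells edgeR called 0 of them, with 4 at an unadjusted p under 0.05 and 0 by DESeq2, while it called 7.94% of all 10384 genes tested. For mesothelial-like cells it called 0 as well, with 3 at an unadjusted p under 0.05 and 0 by DESeq2, where 14.4% of all genes were called. Mesothelial-like S cells numbered 17 to 123 a library, and what size of difference could be detected there was not tested.

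Neural-like S cells, which include progenitors expressing *Sox10* and *Foxd3*, gave more calls. Of the 34 genes, 5 were called higher and 6 lower than in FB-like S cells, where 48.1% of all genes were called. *Hist2h2ac* was at 167, 127, 67.2 and 105 CPM in neural-like and 92.4, 95.5, 53 and 49.3 CPM in FB-like cells, higher in every library (log2 fold change 0.74 ± 0.13 SE). *Hist1h3a* was at 2.37, 7.71, 7.55 and 3.69 CPM against 19.4, 15.3, 18.1 and 13.9 CPM, without overlap (log2 fold change -1.49 ± 0.27 SE). *Hist1h4i* was higher in neural-like cells, with 70.9 to 94.8 CPM against 46.9 to 72.5 CPM (0.48 ± 0.11 SE).

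In G1 cells 15 histone genes could be tested. SMC-like cells had 1 called higher, *Hist1h1b*, with 64.6, 40.2, 50.2 and 35.1 CPM against 43.3, 33.0, 25.8 and 19.1 CPM in FB-like cells, where 10.9% of all genes were called. The groups overlapped, but SMC-like cells were higher in each library, and DESeq2 called 0 of the 15. In mesothelial-like G1 cells 4 were higher and 1 lower, where 27.7% of all genes were called. *Hist3h2a* was among those higher (22.6, 46.6, 32.3 and 39.1 CPM against 26.3, 32.2, 15 and 21.6 CPM, log2 fold change 0.61 ± 0.18 SE) and *Hist1h4d* was the lower one (-0.61 ± 0.18 SE). *Hist1h2bc* rose by 0.69 ± 0.22 SE in the same cells, and without LI replicate 2 none of 16 tested was called.

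Neural-like G1 cells, 25 to 65 a library, had 1 gene higher and 3 lower, where 37.1% of all genes were called. *Hist1h4i* was at 37.3, 26.1, 42.9 and 26.6 CPM against 12.8, 9.38, 19.2 and 13.3 CPM in FB-like cells, without overlap (log2 fold change 1.30 ± 0.25 SE). *Hist3h2a* was at 9.32, 16.5, 5.72 and 6.66 CPM against 15 to 32.2 CPM (-1.19 ± 0.35 SE). *Hist1h3a* had 0 of 1893963 UMIs in neural-like cells and 116 UMIs, or 3.71 CPM, in FB-like cells, at least 2.34-fold lower when a floor of 3 UMIs over the 4 libraries is used.

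To ask whether histone levels differ along the gut, SI and LI were compared over the 2 libraries of each. Summed over all cells and all 69 genes, the level was 1821 and 1763 CPM in LI and 1793 and 1469 CPM in SI, which overlapped. Over all cells edgeR called 0 of 59 histone genes between regions, with 12 at an unadjusted p under 0.05 and 2 called lower in SI by DESeq2, where edgeR called 1.88% of all 14926 genes, had 2176 at an unadjusted p under 0.05, and DESeq2 called 4.2%.

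Within states, most estimates were below 0. In S cells 2 of 51 histone genes were called, both lower in SI, where 2.21% of all genes were called and 1.33% were lower, and 24 of the 51 had an unadjusted p under 0.05, as did 1721 of all 12873. The median log2 fold change of the 51 was -0.57, against 0.01 over all genes tested. In G2M cells 2 of 56 were called, both lower in SI, where 1.93% of all genes were called and 1.25% were lower. In G1 cells edgeR called 0 of 42, with 7 at an unadjusted p under 0.05 and 1 by DESeq2, where 2.22% of all genes were called, 2054 of 13807 had an unadjusted p under 0.05, and DESeq2 called 3.8%. The region effect itself was called different between S and G1 cells for 3 of 54 histone genes (*Hist1h3c*, *Hist3h2a* and *Hist1h2ag*), each with a lower SI over LI ratio in S, where 1.06% of all genes were called and 0.72% were called in that direction.

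*Hist1h4d* was called lower in SI in both S and G2M cells. It had 149 and 131 CPM in S cells of LI and 59.5 and 66.6 CPM in those of SI, and 221 and 199 CPM against 88.3 and 118 CPM in G2M cells. The regions did not overlap in either state. SI was lower by a log2 fold change of -1.03 ± 0.17 SE in S cells (edgeR adjusted p = 0.0174) and of -0.94 ± 0.18 SE in G2M cells (adjusted p = 0.0379). Without SI replicate 1 the call in S cells was lost (adjusted p = 0.0760). In S cells the H2A gene *Hist1h2an* was the other one, at 36.0 and 22.7 CPM in LI and 11.9 and 11.1 CPM in SI (-1.22 ± 0.26 SE, adjusted p = 0.0478, and 0.108 without SI replicate 2). In G2M cells it was the H2B gene *Hist2h2bb*, at 35.8 and 34.1 CPM in LI and 16.1 and 18.1 CPM in SI (-0.94 ± 0.19 SE, adjusted p = 0.0400). Without either SI library neither of the 2 genes was called in G2M cells. In G1 cells *Hist1h2bc* had 25.4 and 31.7 CPM in LI and 66.7 and 41.2 CPM in SI, without overlap, with a log2 fold change of 1.05 ± 0.25 SE that was not called (adjusted p = 0.0816).

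In the replication window the levels were summed by family, without a test. The H1 genes summed to 2443 and 2574 CPM in LI and 2460 and 2611 CPM in SI, which overlapped. Without *Hist1h1b*, the other H1 genes summed to 845 and 895 CPM in LI and 652 and 812 CPM in SI, without overlap. The H2B genes summed to 409.6 and 336 CPM in LI and 189 and 203 CPM in SI, the H3 genes to 363 and 285 CPM against 177 and 205 CPM, and the H4 genes to 481 and 464 CPM against 252 and 309 CPM. For the H2B, H3 and H4 families SI lay below LI without overlap. The H2A genes, at 1066, 1632, 977 and 1188 CPM, overlapped, as LI replicate 1 lay below SI replicate 2.

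**Figure D5:**
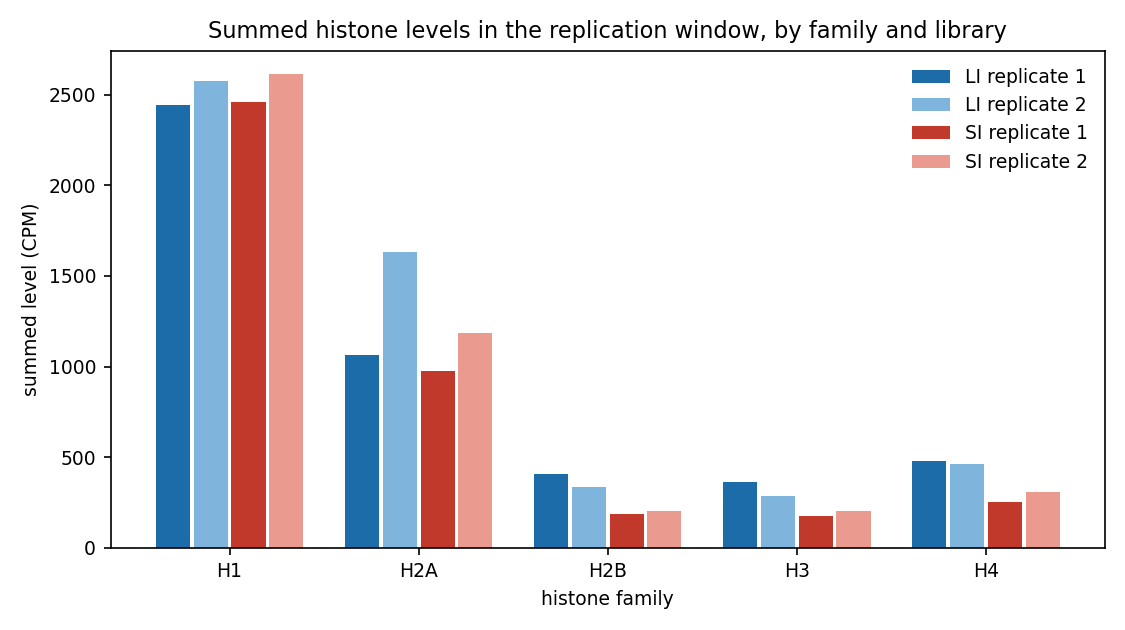
Summed level in CPM (vertical axis, from 0) of the H1, H2A, H2B, H3 and H4 genes in cells of the replication window, 1 bar for each of the 2 LI and 2 SI libraries. The 4 bars are alike for H1 (2443 to 2611 CPM), and both SI bars are below both LI bars for H2B, H3 and H4.

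Of 53 histone genes tested in the replication window, 40 were lower in both SI libraries than in both LI libraries, where 30.5% of all 12437 genes were. They were 14 of 15 H2B, 10 of 10 H3, 7 of 10 H4, 6 of 13 H2A and 3 of 5 H1 genes. Only 3 were called, all lower in SI (*Hist1h4d*, *Hist3h2ba* and *Hist1h2an*), where 1.61% of all genes were called and 0.973% were lower. *Hist3h2ba* had 64.8 and 51.9 CPM in LI and 28.5 and 25.7 CPM in SI (-1.01 ± 0.20 SE, adjusted p = 0.0459). The call of *Hist1h4d* (adjusted p = 0.0406) was lost without SI replicate 1 (0.170) and that of *Hist3h2ba* without SI replicate 2 (0.178). Without LI replicate 2, 21 histone genes were called, 20 of them lower in SI, where 12.7% of all genes were called in that setting.

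*Hist1h1b* did not share this lean. It was the only H1 gene above LI in both SI libraries of the replication window, by a log2 fold change of 0.23 ± 0.15 SE (adjusted p = 0.594). Without *Hist1h1b* the other genes summed to 3165 and 3613 CPM in LI and to 2248 and 2717 CPM in SI. In late cells, *Hist1h2bc* had a change of 0.36 ± 0.23 SE (adjusted p = 0.648), and 119 CPM in LI replicate 1 was its one low value. Of 28 histone genes tested there, *Hist1h4d* alone was called, lower in SI by -1.42 ± 0.25 SE, where 1.67% of all genes were called and 1.01% were lower.

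In FB-like S cells the 69 genes summed to 2771 and 2942 CPM in LI and 2135 and 1762 CPM in SI. In neural-like S cells they summed to 2555 and 2554 CPM in LI and 2566 and 3425 CPM in SI. A difference of the region effect between these groups was not tested. The methods name both 3′ and 5′ chemistry without saying which library had which, so chemistry and region cannot be told apart. LI replicate 1 had the lowest depth, at a median of 4220 UMIs per cell, and without it 12 histone genes were called in the replication window, all lower in SI, where 518 of 12959 genes were called.

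Genes that supply and place histones were followed beside them. Of 12 genes for transcription and 3′ processing of histone messages, 8 were called higher in S than in G1 cells and none lower, beside the 23.8% and 25.1% of all genes. *Slbp*, *Casp8ap2*, *Nasp*, *Chaf1b*, *Anp32e*, *Hjurp* and *Cenpa* are in the lists that made the scores, so their differences between states and windows follow in part from the grouping. *Npat*, the activator of histone gene transcription, which is in neither list, rose by 0.75 ± 0.05 SE on the log2 scale. Of 10 histone chaperones 9 were higher, among them *Asf1b* (4.09 ± 0.07 SE) and *Chaf1a* (2.06 ± 0.06 SE), neither in those lists. In late cells none of the 12 supply genes was higher than in replication cells and 7 were lower, where 19.5% and 17.8% of all genes were. Of 10 genes tied to leaving the cell cycle, 4 were called higher in S than in G1 cells and 4 lower, among the latter *Btg1* (-0.33 ± 0.04 SE).

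Of 11 histone genes outside the clusters, 9 were called higher in S than in G1 cells, where 23.8% of all genes were. In G2M cells 10 were called higher than in G1 cells (28.8% of all genes) and 7 higher than in S cells (22.0%). *H2afz*, a variant of H2A that is made throughout the cycle, had a mean of 3363 CPM in replication and 3285 CPM in late cells, a log2 difference of -0.02 ± 0.06 SE. In resting cells it had 1449, 1096, 1855 and 1172 CPM, below its replication and late levels in each library.

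Genes of H2A and H2B often lie head to head with a shared promoter, and 12 such pairs with starts within 500 bases of each other were found among the clustered histone genes. In the pair with a gap of 251 bases, *Hist1h2ac* and *Hist1h2bc* had opposite changes from replication to late cells, with log2 fold changes of -2.85 and 4.35. In the pair *Hist1h2ae* and *Hist1h2bg*, 176 bases apart, both were lower in late cells, at -3.79 and -1.95. Of the 7 pairs with both genes tested, *Hist1h2ac* and *Hist1h2bc* was the only one whose estimates had opposite signs.

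Sequences between these 2 pairs are shown because 1 pair moved apart and the other together. They are printed from RefSeq promoter sequences (GRCm38.p6, the build of mm10). The gaps above are from GENCODE starts and RefSeq starts differ from these, so the stretches printed are 239 and 175 bases. Both are on the minus strand, reading from the H2B towards the H2A gene. Capitals mark the octamer ATTTGCAT, CCAAT and TATAAA on either strand.

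Hist1h2bc to Hist1h2ac, chr13:23683960-23684198: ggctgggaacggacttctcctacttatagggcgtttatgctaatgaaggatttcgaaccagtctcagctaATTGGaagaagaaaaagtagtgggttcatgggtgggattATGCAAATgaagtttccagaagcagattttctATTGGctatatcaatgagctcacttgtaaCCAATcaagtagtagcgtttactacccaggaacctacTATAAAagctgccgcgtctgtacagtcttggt
Hist1h2bg to Hist1h2ae, chr13:23571221-23571395: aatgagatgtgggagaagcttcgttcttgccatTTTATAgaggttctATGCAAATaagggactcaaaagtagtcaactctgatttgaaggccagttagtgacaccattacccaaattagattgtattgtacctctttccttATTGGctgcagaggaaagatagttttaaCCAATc

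Both stretches held 1 octamer and 1 TATAAA, and CCAAT occurred 3 times in the first and 2 times in the second. In the first the TATAAA lay on the side of *Hist1h2ac* and in the second on the side of *Hist1h2bg*. The RefSeq table gave promoters of 300 bases for 60 histone gene identifiers, where the 2 of *Hist2h2bb* share 1 promoter, counted for each. Of these 60, 21.7% held the octamer, 85.0% CCAAT and 58.3% TATAAA on either strand, against 1.74%, 37.4% and 13.6% of all 32851 promoters. These motifs were thus found both in a pair that moved apart and in one that moved together. A further motif searched for, TTTGAA, was in 43.3% of the histone promoters and 17.9% of all. The promoters of *Hist1h2ae* and *Hist1h2bg* held it and that of *Hist1h2ac* did not. Any link of a motif to these changes was not tested.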

How the data were processed

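UMI counts per gene and cell had been deposited by the authors, made with Cell Ranger 3.1.0 on mm10 (per the labels and methods, which also name Seurat 3); every column was used. Cells with at least 1000 genes and under 10% mitochondrial UMIs were kept, and the cells with the highest Scrublet doublet scores were removed at 0.8% per 1000 cells (183 to 348 a library; the automatic threshold marked 1 to 6). Seurat 5.3.0 scored the cell cycle and clustered cells on 1858 genes (30 components, resolution 0.3, 11 clusters), after 26 clustered histone genes and cell cycle and Hox genes had been taken out of 2000 variable genes. Both cell cycle scores were regressed out before clustering. Counts were summed per library and cell set and tested with edgeR 4.0.16 (TMM, filterByExpr, quasi-likelihood test), with Benjamini-Hochberg adjustment over all genes tested and calls at 0.05; SI was compared with LI over libraries, and states, windows and cell groups with library as a block. Errors are SE of the log2 fold change. For SI against LI, the p-values measure the spread between these 2 libraries a region. For states and cell groups, they measure how differences within a library vary over the 4 libraries. DESeq2 1.42.0 and other settings were alternatives. Genes named were *Hist1h2bc*, *Hist1h1c*, the 10 with most UMIs, the 2 with most of each family, up to 10 higher in G2M than in S in all 4 libraries, and up to 3 called per cell group comparison; others, such as *Hist1h4j* and *Hist1h2an*, were named after their values were seen. Members, gene lists and windows were chosen with earlier results of these data known. R 4.3.3 and Python 3.11.15 were used. Simulated counts served to check the edgeR tests of region over all cells and of S against G1 cells. Libraries of 1 region differed by more than sampling noise.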

Additional observations from a re-analysis of the deposited data

Results flagged for a closer look

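For 3 histone genes the SI over LI difference was itself called different between S and G1 cells, by the interaction of region and state in edgeR. For *Hist1h3c* the interaction was -1.48 on the log2 scale (adjusted p = 0.0015), from 72.2 and 53.9 CPM in LI and 40.0 and 38.0 CPM in SI in S cells, and 5.61 and 5.11 CPM against 12.1 and 7.49 CPM in G1 cells. SI was thus below LI in S and above it in G1, without overlap in either. For *Hist3h2a* it was -0.84 (adjusted p = 0.0099), from 23.5 and 24.9 CPM against 11.4 and 13.2 CPM in S cells, while the regions overlapped in G1 cells at 28.2, 34.3, 30.4 and 25.9 CPM. For *Hist1h2ag* it was -1.24 (adjusted p = 0.0446), from 11.5 and 6.74 CPM against 6.31 and 5.99 CPM in S cells, with overlap in G1 cells at 3.85, 2.15, 5.92 and 3.69 CPM. The *Hist1h2ag* call was lost with DESeq2 (adjusted p = 0.219) and with DESeq2 size factors in edgeR (0.0517), and the other two held under both. Without LI replicate 1 none of the 3 was called (adjusted p = 0.169, 0.288 and 0.347), nor without LI replicate 2 (0.0959, 0.172 and 0.364).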

How the results depend on the processing

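The counts of histone genes called between S and G1 (53), G2M and G1 (52), replication and resting (51), late and resting (33) and late and replication cells (44) stayed within 1.5 times under every alternative run for them. Counts between regions did not. Over all cells (0 called) DESeq2 gave 2, no filter on low counts 4, the replicate block 5, FB-like cells only 2, and leaving out 1 library 0 to 15. In S cells (2) no filter gave 10, the replicate block 8 and leave-one-out 1 to 17. In G2M cells (2) DESeq2 gave 7, no filter 9, the replicate block 16, keeping doublets 1, states called on thinned cells 1, and leave-one-out 0 to 18. In G1 cells (0) DESeq2 gave 1, no filter 4 and leave-one-out 0 to 6. In the replication window (3) DESeq2 gave 8, no filter 14, the replicate block 11 and leave-one-out 3 to 21, and in the late window (1) no filter gave 2, the replicate block 5 and leave-one-out 0 to 6. In each of these the highest count came without LI replicate 2. Calls over all genes rose with them: without LI replicate 2, 12.6% (all cells), 10.9% (S), 14.3% (G2M), 16.7% (G1), 12.7% (replication) and 8.71% (late) of all genes were called, so 6 of 42 histone genes in G1 cells is a share below that of all genes. Without a filter it was 2.81% to 6.39% (6.39% in G1 cells, beside 4 of 62 histone genes), and with the replicate block 4.21% to 11%. With DESeq2 it was 4.2% (all cells), 2.65% (G2M), 3.8% (G1) and 2.03% (replication). With FB-like cells only it was 3.32% (all cells). In G2M cells it was 1.78% with doublets kept and 1.52% with states called on thinned cells. Same-numbered libraries deviated together (r = 0.427 over 8553 genes, a description), but nothing says that a number marks a shared day, and 2 pairs are too few to decide it.

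For the region by state interaction (3), no filter gave 10, keeping doublets 5 and leave-one-out 0 to 7, where 2.02%, 1.26% and 0.289% to 2.0% of all genes were called. With *Ccnb2* and *Cdkn3* cells as the late state, 19 genes were called against S in place of 34. Against FB-like S cells, SMC-like cells (0) had 2 without a filter and 0 to 1 in leave-one-out, mesothelial-like cells (0) had 3 and 0 to 3, and neural-like cells (11) had 5 without the library block. In G1, SMC-like cells (1) had 0 with DESeq2 or without the library block, 2 without a filter and 0 to 2 in leave-one-out. Mesothelial-like cells (5) had 0 without the block and 0 to 5 in leave-one-out, and neural-like cells (4) had 2 and 1 to 3. Over all genes, leaving out the library block brought the share called against FB-like cells from 7.94%, 14.4% and 48.1% to 2.24%, 8.58% and 33.3% in S and from 10.9%, 27.7% and 37.1% to 3.41%, 14.2% and 26.5% in G1 for SMC-like, mesothelial-like and neural-like cells. In leave-one-out it was 4.9% to 8.2%, 8.96% to 13.0% and 38.6% to 43.8% in S and 6.58% to 11.3%, 18.9% to 25.0% and 25.5% to 31.3% in G1, and without a filter 6.87%, 10.4% and 31.6% in S and 10.0%, 19.3% and 23.4% in G1. The summed SI over LI level, -0.14 on the log2 scale, was -0.34 with at least 2000 genes per cell.

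Signs turned between regions in S cells for *Hist1h1b* (-0.018 without SI replicate 1, and up to 0.33 with other libraries left out) and *Hist1h2ae* (0.26 without LI replicate 2, and down to -0.48). With *Ccnb2* and *Cdkn3* cells as the late state they turned for *Hist1h4d* (-0.18) and *Hist1h1b* (-0.90). *Hist3h2a* turned between replication and resting cells without LI replicate 1 (-0.082) or LI replicate 2 (-0.15), and ranged up to 0.30. The cause of these changes was not tested. LI replicate 1 had a median of 4220.5 UMIs per cell, and genes with few UMIs, such as *Hist1h4j* with 268, limit what can be detected.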

Other observations

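For 4 histone genes the genes with the most similar profile among 8472 genes were listed. Pearson's r was taken over 12 angle intervals in 4 libraries (48 points that share libraries and cells). It used log2 CPM with a small offset, less the gene's mean in each library. *Hist1h1b* was most like *Hist1h2ae* (r = 0.988) and *Esco2*, a cohesin acetyltransferase (0.987). *Hist1h2bc* was most like *Tceb2* (0.956), *Atp5f1* (0.933) and *Ndufv2* (0.928), and no clustered histone gene was among its 8 most similar genes. *Hist1h1c* was most like *Hist1h4i* (0.922) and *Hist3h2ba* like *Arid4b* (0.758) (its neighbour *Hist3h2a* had 0.730).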
